A study of Homo sapiens with 4 samples.

Results

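Members of the T-box transcription factor family were examined in CD31+ cells made from the human embryonic stem cell line H1. They were chosen by symbol (TBX1, TBX2, TBX3, TBX4, TBX5, TBX6, TBX15, TBX18, TBX20 and EOMES), 10 genes of the 58229 in the table. All cells came from H1 that had been taken through mesoderm induction with activin A and BMP4 and then cultured with VEGF and bFGF, and CD31+ cells were collected on day 8. In the HAND1_OE group (2 libraries) the transcription factor HAND1 had been overexpressed before blood cells emerge from endothelium, and in the Control group (2 libraries) it had not. The construct that carried HAND1, its promoter and the number of clones were not given in the sources used here, and nothing said whether the libraries of a group came from separate cultures, so p-values measure only the spread between these libraries.

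T-box proteins bind DNA through a conserved domain, the T-box, and act as activators or repressors of transcription. Members mark successive territories of the mesoderm. EOMES acts in the primitive streak and TBX6 in the presomitic mesoderm, whereas TBX1, TBX2, TBX3, TBX5, TBX18 and TBX20 pattern the heart, its outflow tract and its epicardium. TBX4 and TBX5 are best known from limb, lung and heart, and TBX15 from skeleton and skin. HAND1, a basic helix-loop-helix factor, works in the same early heart and extraembryonic mesoderm.

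The members have different coding sequences, which bears on how well reads can be assigned to each. The following 30 nt from the T-box of each gene are shown because they hold the stretch that TBX15 and TBX18 share. Positions count from the A of the start codon of the longest complete coding sequence in GENCODE release 29, and lie at 922 to 951 in TBX18 and 847 to 876 in TBX3. Capitals mark bases that differ from TBX18.
TBX18: gcctatcagaatcagcagattactcgcctg
TBX15: gcctatcagaatcagcagattacCAgATtA
TBX1: gcctaCcagaaCcaTcGgatCacGcAGctC
TBX20: gcctaCcagaatcaAcTgatAacGAAGctg
TBX2: gcctaCcagaatGaCAagatCacAcAGctg
TBX3: gcAtaCcagaatGaTAagatAacCcAGTtA
TBX4: TcctaCcagaatcaCAagatCacCcAGctg
TBX5: TcctaCcagaaCcaCAagatCacGcAATtA
TBX6: gcctaCcagaaCcCAcagatCacAcAActg
EOMES: gcctaCcaAaaCACCGaTattactcAActA
The other genes matched TBX18 at 19 to 25 of the 30 bases, and 12 positions were the same in all 10 genes. Over whole coding sequences, the longest identical run in any of the 45 pairs of members was 24 nt, between TBX2 and TBX3. No pair shared a run of 50 nt, and the median of the longest runs was 16 nt. The read length of the libraries was not given in the sources used here.

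The values were taken to be FPKM (fragments scaled by transcript length and by the mapped fragments of the library), which summed to 536284 to 606609 in a library. The counts behind a value are unknown, so counting error cannot be given. HAND1 itself lay at 12.1 and 14.3 FPKM in Control, against 520 and 517 FPKM in HAND1_OE, a difference of 5.20 on the log2(FPKM + 1) scale (standard error 0.152, limma adjusted p = 0.00145). The label of the cells was checked with markers. Of all genes tested, 2.04% were called higher and 2.11% lower (limma adjusted p under 0.05), the shares beside which the marker counts stand. All 10 endothelial markers passed the filter on low values, PECAM1, which encodes CD31, lay at 92.0 to 160 FPKM, and 1 of the 10 was called, downward (median difference 0.05). Of 11 blood markers 10 were tested, and 10 were called lower in HAND1_OE, while the pan-leukocyte gene PTPRC was at or near 0 throughout, with a summed level of 454 and 669 FPKM in Control and 42.4 and 32.1 FPKM in HAND1_OE. Among 8 mesenchymal stromal markers 7 were tested, 3 were called higher and 0 lower, and the summed level was 655 and 591 FPKM in Control and 1045 and 1028 FPKM in HAND1_OE. The 8 cardiomyocyte markers (5 tested, 1 called lower, MYL4) summed to 75.5 and 84.7 FPKM in Control and 12.7 and 19.2 FPKM in HAND1_OE. This drop was that of MYL4, since the other 7 summed to 7.39 and 8.85 FPKM in Control and to 7.98 and 15.3 FPKM in HAND1_OE, with 4 differences above 0 and 3 below. Among them a troponin gene, TNNT2, was at 1.39 and 1.64 FPKM in Control, against 3.50 and 6.37 FPKM in HAND1_OE (limma adjusted p = 0.0914). The other troponin gene of the list, TNNI1, was at 1.14 and 1.84 FPKM in Control, against 0.386 and 1.29 FPKM in HAND1_OE (limma adjusted p = 0.550). The 5 pluripotency markers (3 tested, none called) summed to 73.1 and 86.6 FPKM and to 51.2 and 66.6 FPKM. The part of these shifts between cell types in the T-box values was not tested, and in bulk RNA fewer cells of a type and less RNA per cell cannot be told apart.

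TBX3 was the most abundant member in every library. This repressor acts in the cardiac conduction system and in extraembryonic and pluripotent cells. The gene (ENSG00000135111.15, GRCh38 chromosome 12, 114670254 to 114684164, minus strand, 8 exons in its longest coding transcript) was at 13.1 and 19.8 FPKM in Control, against 33.7 and 29.9 FPKM in HAND1_OE. Each HAND1_OE value exceeded each Control value. The group means were 16.4 ± 4.70 and 31.8 ± 2.74 FPKM (SD, n = 2), a ratio of 1.94. On the log2(FPKM + 1) scale the difference was 0.94 (95% confidence interval 0.38 to 1.49), which did not pass across all 14622 genes tested (limma adjusted p = 0.0940). Among genes at 1 FPKM or more, TBX3 stood at percentiles 57.9 and 69.5 in Control and 80.5 and 78.7 in HAND1_OE. A single library decided the call: without Control replicate 2 the difference was 1.22 with a limma adjusted p = 0.0275, and without Control replicate 1 it was 0.66 with an adjusted p = 0.271.

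TBX2, the closest relative of TBX3 and a repressor of chamber genes in the atrioventricular canal, had the largest ratio among the members. It is encoded on chromosome 17 (ENSG00000121068.13, 61399896 to 61409466, plus strand). Its level was 0.506 and 0.248 FPKM in Control and 4.56 and 1.74 FPKM in HAND1_OE, so that the groups did not overlap but the HAND1_OE libraries themselves lay far apart. The means were 0.377 ± 0.183 and 3.15 ± 2.00 FPKM (SD, n = 2), a ratio of 8.35. The difference on the log2(FPKM + 1) scale was 1.51 (95% confidence interval 0.58 to 2.44), with a limma adjusted p = 0.102. A pseudocount of 0.1 FPKM raised the difference to 2.67, with a limma adjusted p = 0.0906. TBX2-AS1, an antisense gene on the minus strand (61393456 to 61411555), covers the whole of TBX2, and the library kit does not mark strand, so reads of the pair cannot be told apart in the 9571 bp they share. TBX2-AS1 was listed at 0.940 and 0.317 FPKM in Control, against 1.32 and 0.741 FPKM in HAND1_OE, groups that overlapped. TBX4 lies 42937 bp downstream on the same strand, and its levels overlapped between the groups.

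**Figure D1:**
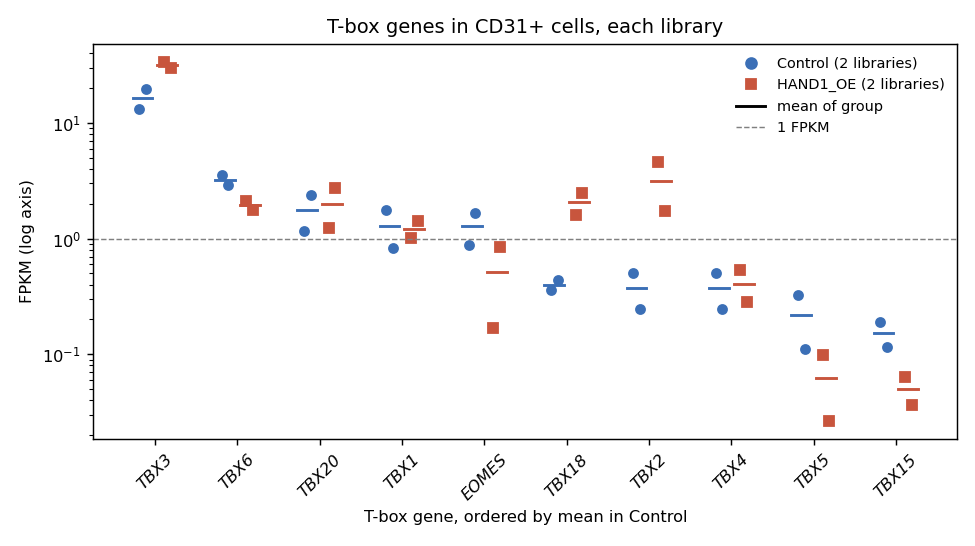
FPKM of the 10 T-box genes (vertical log axis) in each library, ordered by mean level in Control; circles are the 2 Control libraries, squares the 2 HAND1_OE libraries, short lines the group means and the dashed line 1 FPKM. TBX3 lies above all other members in both groups, and TBX2 and TBX18 lie under 1 FPKM in Control and above it in HAND1_OE.

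TBX18 marks the epicardium and the sinus horn of the heart. The gene (ENSG00000112837.16, chromosome 6, 84687351 to 84764519, minus strand) lay at 0.363 and 0.439 FPKM in Control, against 1.61 and 2.50 FPKM in HAND1_OE. Both HAND1_OE libraries exceeded both Control libraries, and the gap between the groups was wider than the distance within either. Means were 0.401 ± 0.0539 and 2.06 ± 0.631 FPKM (SD, n = 2), a ratio of 5.13. This gene had the lowest adjusted p of the members without passing the threshold (difference 1.11 on the log2(FPKM + 1) scale, 95% confidence interval 0.51 to 1.71, limma adjusted p = 0.0745). With a pseudocount of 0.1 FPKM the difference was 2.08 (adjusted p = 0.0836). TBX2 and TBX18 passed the filter on low values only through the HAND1_OE libraries, a condition that favours genes that are higher there, and with either HAND1_OE library left out neither gene was tested.

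TBX6 had lower values in HAND1_OE. It directs presomitic mesoderm and is encoded on chromosome 16 (ENSG00000149922.10, 30085793 to 30091887, minus strand). Values were 3.53 and 2.93 FPKM in Control and 2.12 and 1.78 FPKM in HAND1_OE, with both HAND1_OE libraries under both Control libraries. From means of 3.23 ± 0.425 and 1.95 ± 0.243 FPKM (SD, n = 2) the difference was -0.52 on the log2(FPKM + 1) scale (95% confidence interval -1.01 to -0.03, limma adjusted p = 0.260).

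EOMES, which opens mesoderm and endoderm formation in the primitive streak, was among the candidate factors the study weighed. The gene (ENSG00000163508.12, chromosome 3, 27715949 to 27722711, minus strand) lay at 0.881 and 1.67 FPKM in Control, against 0.170 and 0.851 FPKM in HAND1_OE. The groups were apart only narrowly, since the lower Control library and the higher HAND1_OE library differed by less than the distance within either group. The means were 1.28 ± 0.559 and 0.511 ± 0.482 FPKM (SD, n = 2). A single library reached 1 FPKM, so EOMES was not among the genes tested. When each gene above 0 in any library was fitted, its difference was -0.61 on the log2(FPKM + 1) scale (95% confidence interval -1.65 to 0.43, limma adjusted p = 0.630).

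TBX20 and TBX1 were expressed at 0.829 to 2.73 FPKM with no difference beyond the spread of the libraries. TBX20, a factor of the heart tube and endocardium that the study used as a representative mesenchymal gene (ENSG00000164532.10, chromosome 7, 35202430 to 35254147, minus strand), was at 1.18 and 2.38 FPKM in Control, against 1.24 and 2.73 FPKM in HAND1_OE. In each group replicate 1 was near 1.2 FPKM and replicate 2 above 2, so the groups overlapped almost fully. The means were 1.78 ± 0.854 and 1.98 ± 1.06 FPKM (SD, n = 2), and the difference was 0.09 on the log2(FPKM + 1) scale, with a 95% confidence interval from -0.77 to 0.95 (limma adjusted p = 0.940). With the replicate number as a block the interval was -0.34 to 0.52, though no label ties the libraries. Both intervals leave room for changes of either direction. TBX1, which acts in the pharyngeal mesoderm and outflow tract (ENSG00000184058.13, chromosome 22, 19756703 to 19783593, plus strand), was at 1.77 and 0.829 FPKM in Control, against 1.02 and 1.41 FPKM in HAND1_OE. Both HAND1_OE values lay between the Control values. The means were 1.30 ± 0.665 and 1.21 ± 0.281 FPKM (SD, n = 2), and the difference was -0.03 (95% confidence interval -0.72 to 0.66, limma adjusted p = 0.979). The end of TBX1 overlaps GNB1L on the opposite strand by 370 bp, a gene listed at 5.09 to 9.19 FPKM, and the reads of that stretch cannot be divided by strand.

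The 3 remaining members stayed under 1 FPKM in every library and were not tested. TBX5, a driver of forelimb and atrial identity that lies 261811 bp from TBX3 on chromosome 12 (114353931 to 114408442), was at 0.328 and 0.112 FPKM in Control, against 0.0994 and 0.0264 FPKM in HAND1_OE. TBX15, a skeletal and skin factor (chromosome 1, 118883046 to 118989556), was at 0.189 and 0.116 FPKM in Control, against 0.0638 and 0.0365 FPKM in HAND1_OE. For both genes the HAND1_OE libraries lay under the Control libraries. TBX4, known from hindlimb and lung (chromosome 17, 61452404 to 61485110), was at 0.500 and 0.247 FPKM in Control, against 0.533 and 0.281 FPKM in HAND1_OE, almost the same pair of values in each group. In the fit of each gene above 0, the differences on the log2(FPKM + 1) scale were -0.19 for TBX5 (95% confidence interval -0.53 to 0.14, limma adjusted p = 0.634), -0.13 for TBX15 (-0.28 to 0.011, adjusted p = 0.423) and 0.034 for TBX4 (-0.44 to 0.51, adjusted p = 0.962).

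**Figure D2:**
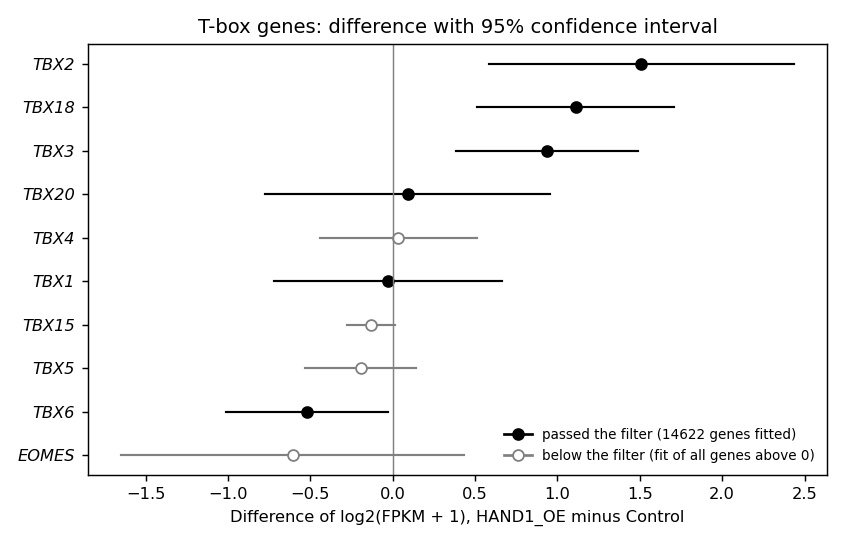
Difference of log2(FPKM + 1) between HAND1_OE and Control for each T-box gene (horizontal axis), with its 95% confidence interval as a line; filled points are the 6 genes tested with all 14622 genes, open points the 4 genes below the filter, from the fit of each gene above 0. Intervals of TBX2, TBX18 and TBX3 lie above 0 before adjustment over all genes, and that of TBX6 lies below 0.

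Across the family, 6 of the 10 members passed the filter and 0 were called by limma in either direction at an adjusted p under 0.05, beside 4.16% of all genes tested (2.04% upward and 2.11% downward). Before adjustment, 4 of the 6 had p under 0.05, TBX2, TBX3, TBX6 and TBX18, beside 17.4% of all genes tested (6.82% upward and 10.6% downward). TBX2 and TBX18 are the 2 that passed the filter only through HAND1_OE. The smallest two-sided p of an exact permutation test in this design (n = 2 and 2) is 0.333. The groups did not overlap for 7 of the 10 members. Of these, TBX2, TBX3 and TBX18 were higher in HAND1_OE, and TBX5, TBX6, TBX15 and EOMES were lower. Of the 6 that were tested, the groups did not overlap for 4, 3 higher and 1 lower. The like shares of all genes tested were 46.3% in either direction, 16.2% higher and 30.1% lower. Over all 10 members 5 differences were above 0 and 5 below, and their median was 0.0028 on the log2(FPKM + 1) scale. The median over all genes fitted was -0.028 when each gene above 0 entered, and -0.078 over the 14622 genes that passed the filter.

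The summed level of the 10 genes was 22.3 and 28.7 FPKM in the Control libraries and 45.2 and 41.2 FPKM in the HAND1_OE libraries, a ratio of 1.69 between the means of 25.5 ± 4.51 and 43.2 ± 2.77 FPKM (SD, n = 2). Most of this sum was TBX3, with 58.6% and 68.8% of it in Control and 74.7% and 72.5% in HAND1_OE. Without TBX3 the sum was 9.24 and 8.97 FPKM in Control and 11.4 FPKM in both HAND1_OE libraries, a ratio of 1.25. Within this remainder the members differed. TBX6 held 15.8% and 10.2% of the family's sum in Control and 4.70% and 4.31% in HAND1_OE, while TBX2 held 2.27% and 0.862% and then 10.1% and 4.21%. TBX18 held 1.62% and 1.53% in Control and 3.57% and 6.07% in HAND1_OE. These shares are not independent of each other, since they add to the whole, and they were not tested.

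**Figure D3:**
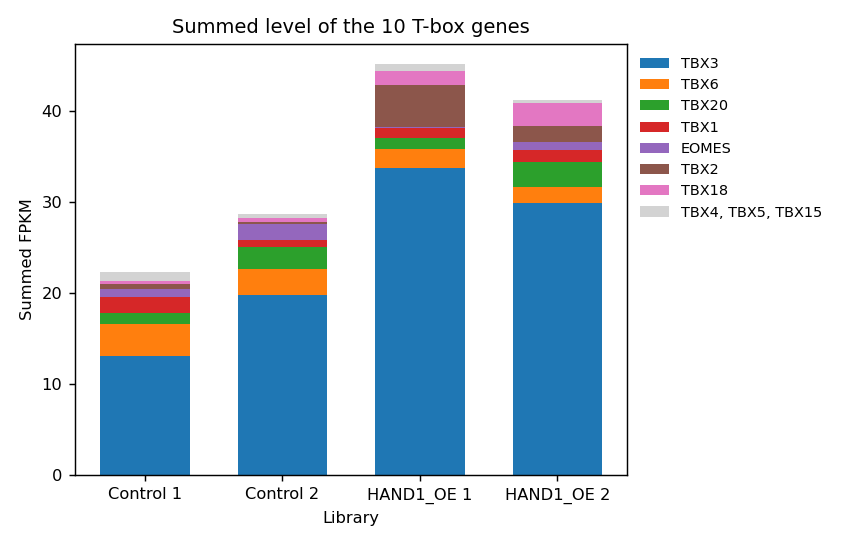
Summed FPKM of the 10 T-box genes (vertical axis, from 0) in each of the 4 libraries, stacked by gene in colour, with TBX4, TBX5 and TBX15 joined in grey. TBX3 fills most of each bar, and the bars reach 22.3 and 28.7 FPKM in Control and 45.2 and 41.2 FPKM in HAND1_OE.

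Ranked by level per length, the order in Control was TBX3, TBX6, TBX20, TBX1, EOMES, TBX18, TBX2, TBX4, TBX5 and TBX15. The libraries of TBX3 and TBX6 were apart from those of the next gene. TBX20, TBX1 and EOMES overlapped from each gene to the next, as did the genes from TBX18 to TBX15, which all lay under 1 FPKM. In HAND1_OE the order was TBX3, TBX2, TBX18, TBX20, TBX6, TBX1, EOMES, TBX4, TBX5 and TBX15. TBX3 again stood alone, whereas the levels of TBX2, TBX18, TBX20 and TBX6 overlapped from each gene to the next. At 1 FPKM or more were 4 members in each Control library and 6 in each HAND1_OE library. TBX3, TBX6 and TBX20 were among them in every library, with TBX1 in Control replicate 1 and EOMES in Control replicate 2. In HAND1_OE the others were TBX1, TBX2 and TBX18. Over the whole table, 14383 and 14542 genes reached 1 FPKM in Control and 13989 and 14195 in HAND1_OE.

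Upstream sequence was read for the members that have an entry in the RefSeq promoter table (GRCh38.p14), which were 7 of the 10. TBX2, TBX3 and TBX15 had none. The 250 bases before the RefSeq transcription start are shown for TBX18, which had the largest ratio of the 7, and for TBX6, which was lower in both HAND1_OE libraries. The windows are chr6:84764599-84764848 and chr16:30091925-30092174, both on the minus strand and written 5′ to 3′ on the strand of the gene. Capitals mark the E-box CANNTG, the element that basic helix-loop-helix factors such as HAND1 bind, which reads the same on both strands.
TBX18: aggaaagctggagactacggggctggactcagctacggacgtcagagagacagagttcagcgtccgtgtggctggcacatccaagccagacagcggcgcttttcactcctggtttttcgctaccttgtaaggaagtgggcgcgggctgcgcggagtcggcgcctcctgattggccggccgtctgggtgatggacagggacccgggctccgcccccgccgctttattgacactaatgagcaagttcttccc
TBX6: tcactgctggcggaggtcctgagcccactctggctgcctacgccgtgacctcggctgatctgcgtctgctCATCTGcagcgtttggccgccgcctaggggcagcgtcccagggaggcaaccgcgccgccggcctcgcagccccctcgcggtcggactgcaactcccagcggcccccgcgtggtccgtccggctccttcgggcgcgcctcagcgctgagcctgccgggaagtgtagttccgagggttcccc
TBX18 had no E-box in this window. TBX6 had 1, CATCTG, whose first base lies 180 bases before the start, and EOMES had 1, CAGGTG, at 109 bases. TBX1 had CAGATG at 140 bases and TBX4 CACGTG at 120 bases. TBX20 had none, and of the 2 entries for TBX5 1 had CATTTG at 60 bases. Not every start lies at the edge of the gene: 3 of the 8 windows, those of EOMES, TBX4 and 1 of TBX5, lie wholly inside the span the table gives for the gene, and that of TBX20 does so for 47 of its bases. The starts of TBX18 and TBX6, whose windows are shown, lie outside the span of the gene. The bases just after these starts were not found in a GENCODE transcript of the gene. In all, 5 of 8 entries (62.5%) held an E-box, beside 61.8% of 35116 promoter windows of the same length. The form CATCTG, read on both strands, was in 2 of the 8 entries and in 12.2% of all windows. The T-box half-site GGTGTGA, also read on both strands, was in 0 of 8 entries and in 2.76% of all windows. A match of letters does not show that a factor binds there.

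Genes around the family were compared through lists written from general knowledge. Among 7 other T-box genes only MGA and TBX19 reached the filter, and neither was called. MGA, a T-box protein that pairs with MAX, was at 4.70 and 4.79 FPKM in Control, against 3.19 and 4.83 FPKM in HAND1_OE (limma adjusted p = 0.717). TBX19, a pituitary factor, was at 1.07 to 1.75 FPKM in all libraries (adjusted p = 0.987). The other 5, TBXT, TBX10, TBX21, TBX22 and TBR1, did not exceed 0.210 FPKM in any library.

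Of 12 cardiac partner factors 11 were tested, 0 were called higher and 1 lower, with a median difference of -0.29 on the log2(FPKM + 1) scale. The gene called was HAND2, a paralog of HAND1, which fell from 35.4 and 36.8 FPKM to 7.24 and 9.09 FPKM (difference -2.02, limma adjusted p = 0.00730). Of 12 heart genes regulated by T-box factors 6 were tested, 1 was called higher and 1 lower, and the median was -0.19. Before adjustment 4 of these 6 had p under 0.05, the higher BMP10 and the lower HEY2, GJA1 and ID2. BMP10, a ligand of the atrial and trabecular heart, rose from 0.452 and 0.461 FPKM to 2.49 and 3.78 FPKM (difference 1.49, limma adjusted p = 0.0347). Like TBX2 and TBX18, BMP10 passed the filter only through the HAND1_OE libraries, a condition that favours genes that are higher there. HEY2, a transcriptional repressor present in the ventricular chamber and in arteries, fell from 36.5 and 31.9 FPKM to 12.7 and 16.3 FPKM (difference -1.19, limma adjusted p = 0.0311). All 6 genes known to be repressed by TBX2 and TBX3 were tested and none was called by limma, with a median of 0.064. Before adjustment 1 of the 6 had p under 0.05, a share near the 17.4% of all genes. It was CDKN2A, another cell cycle inhibitor, at 2.37 and 2.73 FPKM in Control, against 0.999 and 1.13 FPKM in HAND1_OE (difference -0.78, limma adjusted p = 0.109). The most abundant of them, the cell cycle inhibitor CDKN1A, was at 101 and 126 FPKM in Control, against 136 and 172 FPKM in HAND1_OE (difference 0.44, limma adjusted p = 0.346). That difference was 0.28 without Control replicate 1 and 0.27 without HAND1_OE replicate 2.

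Of 13 upstream signals and factors 6 were tested, 1 was called higher and 0 lower, with a median of 0.30. FGF10, a mesodermal growth factor, rose from 6.11 and 6.48 FPKM to 13.0 and 15.8 FPKM (difference 1.07, limma adjusted p = 0.0341). Leaving out a library ended its call in 3 of 4 cases, with adjusted p = 0.0631 and 0.0517 without the first and the second Control library and 0.0652 without HAND1_OE replicate 2. Among 10 epicardial genes 5 were tested, 2 were called higher and 0 lower, and the median was 0.60. WT1, a transcription factor of the epicardium, rose from 0.746 and 0.472 FPKM to 10.1 and 7.14 FPKM (difference 2.57, limma adjusted p = 0.00851), and LRRN4, a mesothelial membrane protein, from 2.40 and 2.76 FPKM to 9.28 and 7.29 FPKM (difference 1.37, adjusted p = 0.0258). Of the 5 tested differences 4 were above 0, and that of ALDH1A2 was below (-0.26, limma adjusted p = 0.748). TCF21 and UPK3B, other members of that list, did not exceed 0.480 FPKM in any library. Among the genes not tested, UPK3B and MSLN were lower in both HAND1_OE libraries, at 0 to 0.0577 FPKM. The differences of TCF21 (0.16) and SEMA3D (0.38) were above 0 and that of UPK1B (-0.058) below, with groups that overlapped. Single libraries weighed on the median of the epicardial genes, which became 1.03 when HAND1_OE replicate 1 was dropped, 0.99 for Control replicate 2 and 0.17 for HAND1_OE replicate 2. WT1 and BMP10 passed the filter only through the HAND1_OE libraries, which favours genes that are higher there. Both were not tested once either HAND1_OE library was dropped, since a single library then reached 1 FPKM.

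Of 8 primitive streak genes 4 were tested, 0 were called higher and 1 lower, with a median of -0.56. MIXL1, a homeobox factor of the streak, fell from 5.63 and 3.89 FPKM to 0.813 and 1.27 FPKM (difference -1.49, limma adjusted p = 0.0369), and its call was lost without Control replicate 1 (adjusted p = 0.0693), as was that of HEY2 (0.0518). Of 9 presomitic genes 5 were tested and none was called by limma, with a median of -0.34 that ranged from -0.57 to -0.19 with 1 library left out. Before adjustment 3 of the 5 had p under 0.05, beside 17.4% of all genes tested (6.82% upward and 10.6% downward). They were the lower DLL3 and HES7 and the higher TCF15. The most abundant gene of the presomitic list, the Notch modifier LFNG, was at 23.0 and 28.5 FPKM in Control, against 17.9 and 22.4 FPKM in HAND1_OE (limma adjusted p = 0.456). Before adjustment 2 of the 6 upstream, 2 of the 5 epicardial and 2 of the 4 primitive streak genes tested had p under 0.05. The counts of called genes stand beside the 2.04% and 2.11% of all genes called in each direction. Lists of this size hold few genes.

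**Figure D4:**
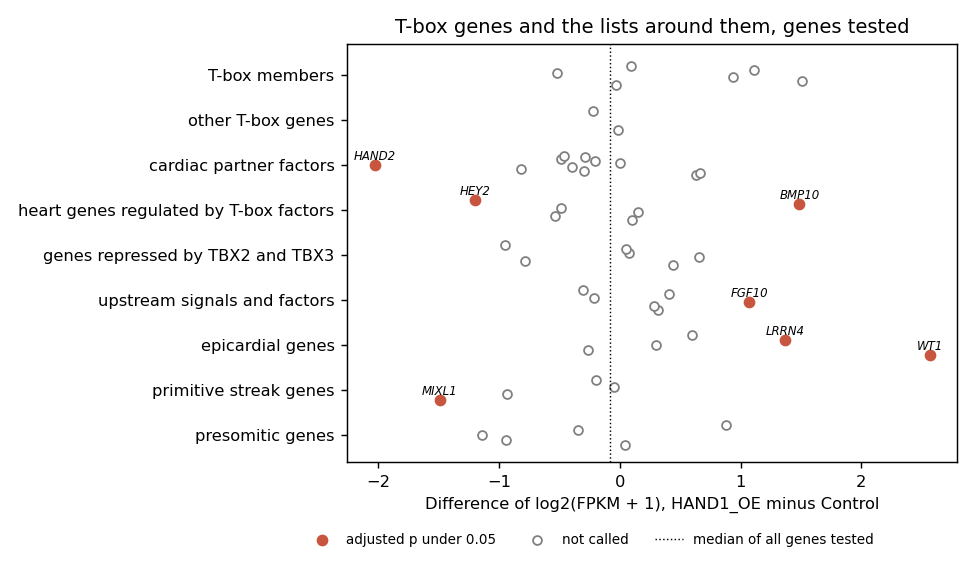
Difference of log2(FPKM + 1) between HAND1_OE and Control (horizontal axis) for every tested gene of the T-box members and of the lists around them; filled points have an adjusted p under 0.05, open points do not, and the dotted line is the median of all genes tested. No T-box gene is called, and WT1, BMP10, LRRN4 and FGF10 lie to the right and HAND2, MIXL1 and HEY2 to the left among the called genes. TBX2, TBX18, WT1 and BMP10 passed the filter only through the HAND1_OE libraries.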

How the data were processed

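RNA was sequenced from total RNA of CD31+ cells with an unstranded Illumina TruSeq kit. The authors deposited a single table with 1 value for each gene and library, in a unit it does not state. The authors' deposited numbers were treated as FPKM, as in the study's own plots. They hold decimals, and their totals differ between libraries. BWA, Bowtie and RSEM and the build hg19 are named, with no roles or versions, in the submitters' processing notes. The coordinates of the table, whose starts count from 0, match GRCh38, since 99.96% of the 55605 genes that carry a GENCODE release 29 ID have its position. Starts are given counted from 1. Of 58365 rows, 45 Y copies of pseudoautosomal genes and 91 further rows sharing a gene ID were left out, keeping the highest-mean row of each ID, as for TBX18. TBXT is listed under its older symbol T and was matched by gene ID.

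The log2(FPKM + 1) of genes at 1 FPKM or more in at least 2 libraries was fitted with limma 3.58.1 (R 4.3.3), a mean-variance trend and Benjamini-Hochberg adjustment over all 14622 genes tested, two-sided. Groups were taken from the sample titles. No counts or depths are given, so no interval from counting error was computed. The code was tested on simulated data with known changes. The T-box members and all lists were chosen with earlier results of these data known. Genes named were all members, HAND1, other T-box genes past the filter, up to 4 called genes of each list (the most abundant gene where none was called) and expressed genes that overlap a member. TCF21, UPK3B, PECAM1, PTPRC, MYL4, TNNT2, CDKN2A, NDRG1, DLL3, HES7 and TCF15 were named after their values were seen. Sequences came from the RefSeq promoter table (GRCh38.p14) and GENCODE release 29 transcripts. Alternatives were a pseudocount of 0.1 FPKM, each gene above 0, 1 FPKM in every library, median-ratio scaling, quantile normalization, no trend, the replicate number as a block and each library left out.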

Additional observations from a re-analysis of the deposited data

Results flagged for a closer look

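The table holds a second, separate row for TBX18, which was not used above because its mean is lower than that of the row for the whole gene. It covers chromosome 6, 84741067 to 84741802, 736 bp that match a single-exon processed transcript inside the gene. This row was at 0.101 FPKM in each Control library, against 0.501 and 0.986 FPKM in HAND1_OE. Both HAND1_OE values exceeded both Control values, which is what put it forward. Its mean of 0.743 ± 0.343 FPKM (SD, n = 2) in HAND1_OE was 7.37 times its mean in Control. The direction was fixed by that rule, so its match with the row for the whole gene is no separate evidence. Because the transcript lies inside TBX18 and the kit does not mark strand, reads of the short transcript and of unspliced TBX18 RNA cannot be told apart. Groups of 2 libraries are too small for a search for single outlying samples.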

How the results depend on the processing

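A few settings moved a result across a limit. When the fit took in 29860 genes, all those with a value above 0 somewhere, 0 genes were called higher and 0 lower by limma (1458 and 2352 at an unadjusted p under 0.05), HAND1 kept its difference of 5.20 with an adjusted p = 0.153, 0 of 10 T-box members were called and 3 had an unadjusted p under 0.05, and all called genes named from the lists lost their calls. With the replicate number as a block, 597 genes were called higher and 712 lower, and 2 T-box members were called higher, TBX2 (limma adjusted p = 0.0447) and TBX18 (0.0472), and, of the genes repressed by TBX2 and TBX3, CDKN1A was called higher (0.0460) and NDRG1 lower (0.0264). From the other lists, GATA4 (0.0384), GATA5 (0.0383), KRT19 (0.0308) and TCF15 (0.0273) gained calls upward in this fit. NKX2-5 (0.0449), ID2 (0.0470), DLL3 (0.0403) and HES7 (0.0442) gained calls downward. The replicate numbers are shared by name only: the deviations of Control replicate 1 and HAND1_OE replicate 1 from their group means had a correlation of 0.38 across 14622 genes, which are not independent, and no label ties the libraries, so the pairing is a hint from the data. Without Control replicate 2, TBX3 was called. Leaving out 1 library each gave 270 to 313 genes higher, 212 to 431 lower, 0 to 1 T-box members called higher and 0 called lower, a HAND1 difference of 5.08 to 5.31 and a ratio of summed T-box FPKM of 1.50 to 1.93. A lone library of a group is then assumed to vary like the others. Median-ratio scaling gave 350 genes higher and 268 lower and quantile normalization 355 and 266, against 299 and 309. TBX2, TBX3 and TBX18 were above 0 and TBX6 below 0 in every setting that tested them. Their groups do not overlap, so only median-ratio scaling and quantile normalization could have changed these signs. The other settings could not, so the steady sign is no separate evidence. With all 4 libraries kept, the limma adjusted p-values were 0.0447 to 0.350 for TBX2 and 0.0702 to 0.303 for TBX3. For TBX18 they were 0.0472 to 0.243 and for TBX6 0.114 to 0.430. Medians of the lists moved more, from 0.17 to 1.03 for the epicardial, -0.95 to -0.19 for the primitive streak, -0.57 to -0.036 for the presomitic and -0.62 to -0.11 for the T-box-regulated heart genes, and those of the genes repressed by TBX2 and TBX3 and of the upstream list crossed 0. TBX1 changed sign in 4 settings and TBX20 in 2, with no call. The cause of these shifts was not tested.

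Depth limits the low members, whose counts are unknown, and 2 libraries per group limit every p-value.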
